A study of Acidomyces sp. 'richmondensis' with 12 samples.

Results

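The comparison described here is the genotype by copper interaction in mycelia of the acid-loving fungus Acidomyces richmondensis, strain MEY-1: the copper response of a strain lacking the gene ArAceA (∆ArAceA) minus the copper response of the wild-type strain (WT). It used all 12 of the 12 RNA-seq libraries of the study, 3 separate cultures in each of 4 groups: ∆ArAceA with 15 mM CuCl2, ∆ArAceA without copper (0 mM CuCl2), WT with 15 mM CuCl2 and WT without copper. All 4 groups were strain MEY-1 mycelium, grown in liquid medium, washed, moved to fresh medium and collected 6 h later, so the groups without copper carry the same wash and transfer. The title of the study names copper resistance determinants and CRISPR/Cas9. The labels do not say how many transformants stand behind ∆ArAceA, so the deletion strain is taken as 1 strain, and a difference between strains that does not come from the deletion cannot be told apart from one that does.

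Copper is needed in small amounts as a cofactor of enzymes and is toxic in excess, where it takes part in redox cycling and displaces other metals from proteins. Fungi meet an excess with copper-sensing transcription factors: Ace1 of Saccharomyces cerevisiae binds copper and switches on metallothionein genes, and AceA of Aspergillus fumigatus acts in the same way on a copper-exporting ATPase. A gene that such a factor alone induces would rise with copper in WT and fail to rise in the deletion, which a design of 2 genotypes and 2 treatments measures as a negative interaction. A positive interaction means that copper moved the gene further up, or less far down, in the deletion than in WT.

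The unit of every level is FPKM (read fragments divided by transcript length and by library size), and 10043 genes are listed by locus identifier. No file used here gives names for the identifiers, so roles cannot be given for any gene below, and neither ArAceA itself nor markers of mycelium were analysed here. The FPKM of a library summed to between 884111 and 926713. The number of reads behind it is unknown, and no interval for counting error is given. Around its group mean, a library scattered over genes with a residual SD of 0.147 to 0.189 on the log2(FPKM + 1) scale, and the 3 libraries of WT without copper had the highest values, from 0.175 to 0.189. In bulk RNA, less of a transcript per cell and fewer cells that carry it cannot be told apart.

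The copper response of ∆ArAceA differed from that of WT in a large part of the transcriptome, mostly by small amounts. Of the 8741 genes tested, 4006 (45.8%) differed between genotypes in their response. The response was more positive in ∆ArAceA for 1770 genes (20.2%) and more negative for 2236 (25.6%). Differences of at least 2-fold were few and mostly negative, with 92 genes (1.05%) more positive and 417 genes (4.77%) more negative. At 4-fold or more there were 12 and 53 genes, and at 8-fold or more 1 and 13. At the small end, 2023 of the 4006 called genes differed by less than 0.5 on the log2 scale, and the smallest difference called was 0.13.

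A gene was called at an adjusted p under 0.05 in limma's moderated two-sided test on log2(FPKM + 1), with Benjamini-Hochberg adjustment over all 8741 genes. The standard error of the difference had a median of 0.11 over genes, against 0.08 for the copper response of a single genotype. Tested against a minimum difference of 2-fold, 11 genes (0.126%) passed with a more positive and 75 (0.858%) with a more negative response in ∆ArAceA. The p-values rest on 3 cultures a group and on a spread shared by the 4 groups.

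**Figure D1:**
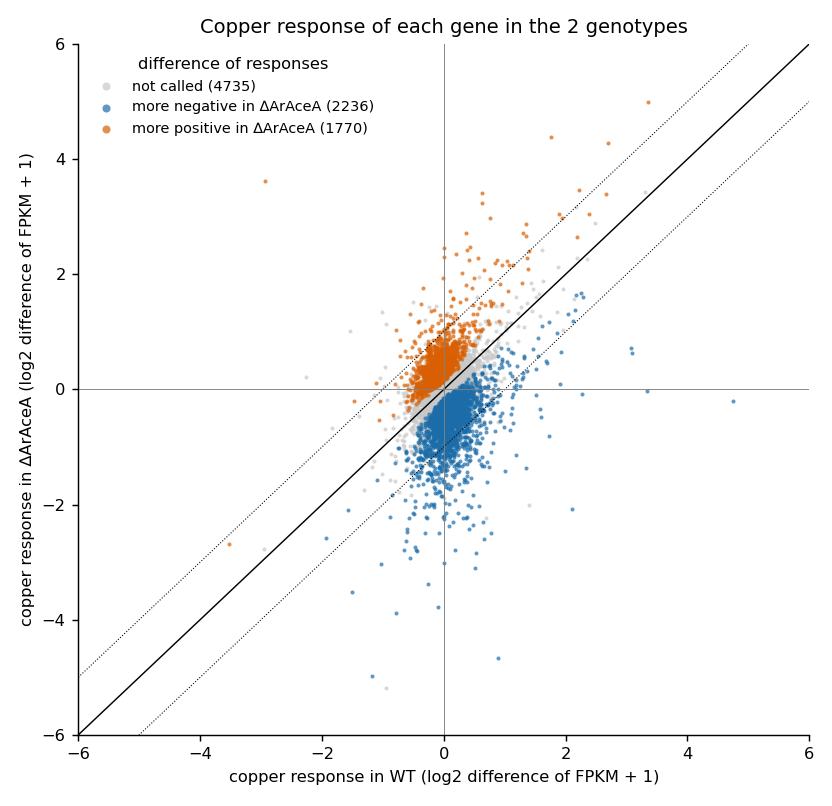
Each point is 1 of the 8741 genes, placed by its copper response in WT (x axis) and in ∆ArAceA (y axis), both as differences of mean log2(FPKM + 1), and coloured by the call of the difference. The solid line marks equal responses and the dotted lines a 2-fold difference; 417 called genes lie at or below the lower dotted line and 92 at or above the upper one.

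A gene without a called difference was not shown to respond alike, so the width of its interval was read instead. Among the 4735 genes not called, the 95% confidence interval of the difference lay within 0.5 of zero on the log2 scale in 3012 genes (63.6%) and within 1, that is under 2-fold either way, in 4364 (92.2%). For 371 genes the interval reached past 2-fold. Whether those 371 genes responded differently by 2-fold was not detectable with this spread.

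Genes are named here from the called ones whose highest group mean reached 5 FPKM. The 2 most positive differences had different forms. M433DRAFT_131828 stood at 7.40, 16.45 and 11.5 FPKM in ∆ArAceA with copper and was listed at 0 in all 3 libraries of ∆ArAceA without copper. In WT it had 0.57, 1.01 and 0 FPKM with copper, against 10.25, 12.64 and 8.15 FPKM without copper. It was thus high in the treated deletion and in the untreated wild type and at or near 0 in the other 2 groups, with no overlap between high and low libraries. The fitted difference of responses was 6.55 (SE 0.39; 95% interval 5.69 to 7.40; limma adjusted p = 3.05e-07) on the log2(FPKM + 1) scale, with a response of 3.61 in ∆ArAceA and of -2.93 in WT. Since 1 group was listed at 0, the size depends on the pseudocount, and with 0.1 in place of 1 the difference was 11.43 (SE 0.995). No fold is given for ∆ArAceA for the same reason.

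M433DRAFT_357512 was an amplified response. It had 41.21, 31.87 and 34.42 FPKM in ∆ArAceA with copper, against 2.97, 2.22 and 2.18 FPKM in ∆ArAceA without copper. The WT libraries had 3.21, 3.27 and 1.76 FPKM with copper, against 1.16, 1.58 and 1.44 FPKM without copper. All 3 treated deletion libraries lay above the other 9, and in WT the groups did not overlap either. Within WT, 34.4% of all genes tested had no overlap between treated and untreated libraries, and within ∆ArAceA 65.0%. Ratios of means were 14.6-fold in ∆ArAceA and 1.97-fold in WT, and both responses were called (limma adjusted p = 3.21e-09 and 0.0161). The difference was 2.79 (SE 0.23; limma adjusted p = 1.36e-06). Had the WT change been added to the level of ∆ArAceA without copper on the log2 scale, 4.29 FPKM would have been reached in ∆ArAceA with copper, where 35.8 ± 4.83 (SD, n = 3) was measured.

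The 2 most negative differences on the log2(FPKM + 1) scale differed in which group carried them. M433DRAFT_63521 had 9.21, 6.75 and 6.55 FPKM in ∆ArAceA with copper and 211.7, 225.1 and 206.0 FPKM in ∆ArAceA without copper. In WT it had 8.62, 7.88 and 8.07 FPKM with copper, against 3.78, 3.65 and 4.39 FPKM without copper. The untreated deletion stood far above the other 3 groups, which lay between 3.65 and 9.21 FPKM. Copper lowered the gene 28.6-fold in ∆ArAceA and raised it 2.08-fold in WT, and in copper the genotypes were not called different (log2 difference -0.13, SE 0.10, limma adjusted p = 0.332; 7.50 ± 1.48 FPKM in ∆ArAceA and 8.19 ± 0.384 FPKM in WT, SD, n = 3 each). The difference of responses was -5.57 (SE 0.14; limma adjusted p = 2.06e-11).

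For M433DRAFT_310551 the treated WT was the group that differed. Its levels were 12.91, 10.64 and 12.03 FPKM in ∆ArAceA with copper and 13.36, 14.78 and 13.19 FPKM in ∆ArAceA without copper. In WT it reached 470.9, 464.1 and 406.7 FPKM with copper, against 15.23, 15.92 and 15.56 FPKM without copper. Only the treated WT libraries stood apart, 28.7-fold above untreated WT. In ∆ArAceA the gene fell slightly with copper, a log2 response of -0.20 (SE 0.07; limma adjusted p = 0.0324), without overlap between the 3 treated and the 3 untreated libraries. The additive level was 397 FPKM and the measured mean 11.9 ± 1.14 FPKM (SD, n = 3), and the difference of responses was -4.96 (SE 0.10; limma adjusted p = 4.89e-12).

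**Figure D2:**
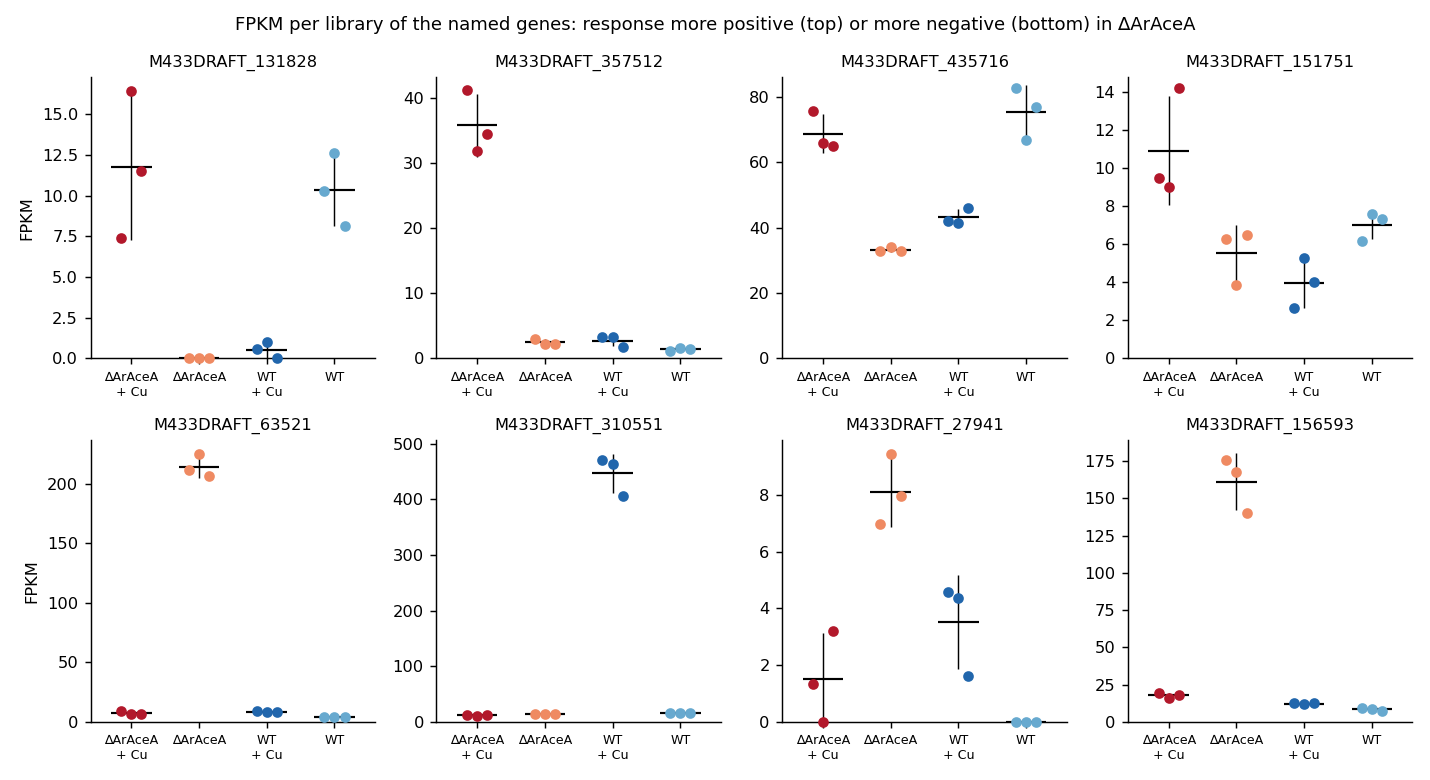
FPKM (y axis, from 0) of the 8 named genes in each library (points), with the mean (line) and SD (bar, cut at 0) of 3 cultures; groups run from ∆ArAceA with copper to WT without copper. The top row holds genes whose response was more positive in ∆ArAceA and the bottom row genes whose response was more negative, and M433DRAFT_310551 is the gene of this set in which treated WT (407 to 471 FPKM) stands apart.

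To see which genotype carried the differences, genes were sorted by the calls of copper within each genotype. These calls come from the same libraries as the difference, so the counts describe the called genes and are not separate evidence. Over all genes tested, copper raised 2159 (24.7%) and lowered 2756 (31.5%) in ∆ArAceA, and raised 929 (10.6%) and lowered 938 (10.7%) in WT. The balance of directions depended on the scaling of the libraries: upper-quartile scaling gave 2677 raised and 2350 lowered in ∆ArAceA, and 1203 and 710 in WT. Median-of-ratios scaling gave 2440 and 2556 in ∆ArAceA, and 1044 and 921 in WT. With the values as deposited, the median size of a response, either way, was 0.25 on the log2 scale in ∆ArAceA and 0.12 in WT. Their standard errors are equal because the fit shares the spread over the groups, although the untreated WT libraries scattered most.

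Most of the called differences were in genes that copper moved in ∆ArAceA and for which no response was called in WT. This held for 1124 of the 1770 more positive genes (63.5%), which rose in ∆ArAceA, and for 1529 of the 2236 more negative genes (68.4%), which fell there. Over all genes tested, 1556 (17.8%) were raised and 2117 (24.2%) lowered in ∆ArAceA without a call in WT. The difference was called in 72.2% of each. The 1124 genes had median levels of 36.9 FPKM in ∆ArAceA with copper and 27.4 FPKM without, and 29.9 and 30.5 FPKM in WT with and without copper. For the 1529 genes the medians were 17.1 and 26.6 FPKM in ∆ArAceA with and without copper, and 15.9 and 15.8 FPKM in WT. Fewer genes had a called difference and a copper call in WT without one in ∆ArAceA: 187 rose and 198 fell in WT. These came from only 278 (3.18%) and 347 (3.97%) of the genes tested, with the difference called in 67.3% and 57.1% of them. The contrast in counts thus partly follows how many genes had a copper call in each genotype. Another 177 genes had a called difference without a call in either genotype.

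Where copper moved a gene in the same direction in both genotypes, the difference was called no more often than over all genes tested. The shares were 45.25% of the genes raised in both and 40.2% of those lowered in both, against 45.8% of all 8741. Of the 400 genes raised in both, 129 rose more in ∆ArAceA, 52 rose less, and for 219 the difference was not called. Median responses of the 129 genes were 0.92 in ∆ArAceA and 0.38 in WT on the log2 scale, and the 52 genes had 0.47 and 1.08. Of the 388 genes lowered in both, 145 fell further in ∆ArAceA, 11 fell less far and for 232 the difference was not called. The 145 genes had median responses of -0.89 in ∆ArAceA and -0.30 in WT. For the 451 genes of both kinds without a called difference, the 95% interval lay within 2-fold in 440 and within 0.5 of zero on the log2 scale in 357.

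**Figure D3:**
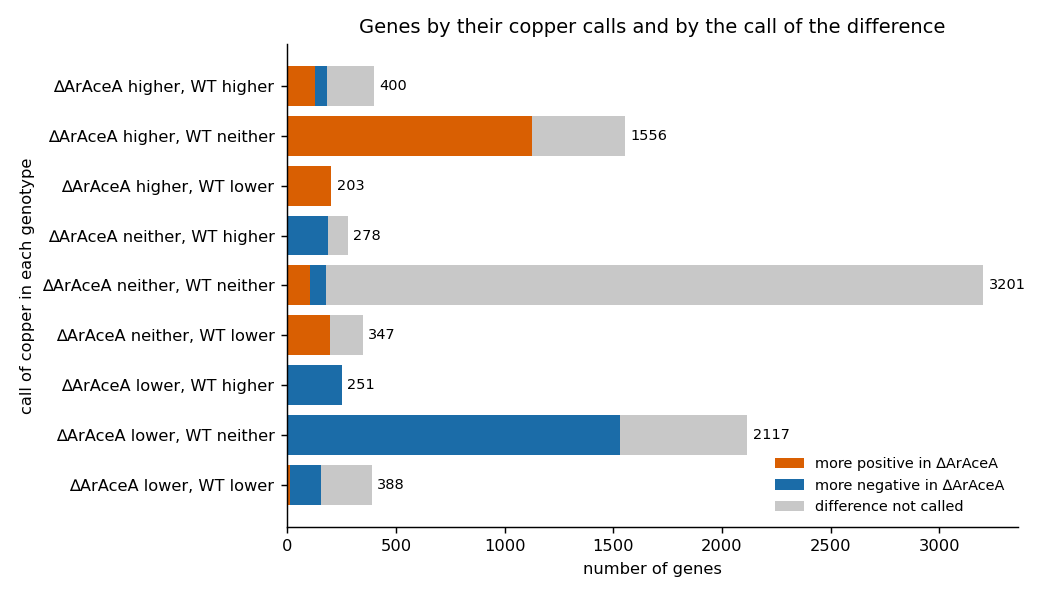
Number of genes (x axis) in each of the 9 combinations of copper calls, ∆ArAceA named first in each label, coloured by the call of the difference of responses. Apart from the 3201 genes with no copper call, the longest bars are genes lowered (2117) or raised (1556) in ∆ArAceA with no call in WT.

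Some genes moved with copper in opposite directions in the genotypes, and the difference was called in each of them. Called responses of opposite sign add up in the difference, so this call nearly follows from the sorting and is not a separate result. In 203 genes (2.32% of those tested) the level rose in ∆ArAceA and fell in WT. Their median responses were 0.29 and -0.25 on the log2 scale, and 15 of these differed by at least 2-fold. In 251 genes (2.87%) it fell in ∆ArAceA and rose in WT, with medians of -0.48 and 0.37, and 103 differed by at least 2-fold. The 251 genes had median levels of 17.9 FPKM in ∆ArAceA with copper and 28.4 FPKM without, against 17.6 and 13.8 FPKM in WT with and without copper. These counts leaned on single WT libraries, treated and untreated. Without replicate 1 of WT with copper they were 135 and 158, and without its replicate 2 they were 135 and 184. Without replicate 1 of WT without copper they were 220 and 185, and without its replicate 2 they were 139 and 221. With the replicate number as a block they were 154 and 209.

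M433DRAFT_131828, M433DRAFT_63521 and M433DRAFT_310551 are of this kind, and the next genes by size under the same minimum level are given here. M433DRAFT_435716 had 75.61, 65.91 and 64.85 FPKM in ∆ArAceA with copper and 32.81, 33.97 and 32.77 FPKM without, whereas WT had 42.06, 41.54 and 46.05 FPKM with copper and 82.72, 66.75 and 76.87 FPKM without. Treated deletion and untreated WT overlapped, and both lay above all 6 other libraries. The gene rose 2.07-fold in ∆ArAceA and fell 1.75-fold in WT, a difference of 1.81 (SE 0.11; limma adjusted p = 9.46e-08). M433DRAFT_151751 had 9.49, 9 and 14.18 FPKM in ∆ArAceA with copper and 6.29, 3.86 and 6.46 FPKM without, against 2.63, 5.27 and 4.01 FPKM in treated WT and 6.16, 7.59 and 7.32 FPKM in untreated WT. Its groups did not overlap within either genotype, but its error was wider, with a difference of 1.59 (SE 0.32; 95% interval 0.89 to 2.28; limma adjusted p = 0.00171). The gene did not pass the test against a minimum difference of 2-fold. Over all genes tested, treated and untreated libraries did not overlap in 65.0% of genes in ∆ArAceA and in 34.4% in WT.

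M433DRAFT_156593 behaved much like M433DRAFT_63521, with 19.33, 16 and 18.04 FPKM in ∆ArAceA with copper and 176.1, 167.8 and 139.9 FPKM without, against 12.36, 11.63 and 12.33 FPKM in treated WT and 9.39, 8.22 and 7.14 FPKM in untreated WT. Copper lowered it 9.07-fold in ∆ArAceA and raised it 1.47-fold in WT, a difference of -3.62 (SE 0.14; limma adjusted p = 2.54e-09). Untreated deletion was the only group above 20 FPKM. M433DRAFT_27941 was low in every library, at 1.33, 0 and 3.2 FPKM in ∆ArAceA with copper and 6.96, 9.45 and 7.95 FPKM without, against 4.59, 4.35 and 1.62 FPKM in treated WT and 0 in all 3 WT libraries without copper. Its difference of -4.18 carried a wide error (SE 0.64; 95% interval -5.60 to -2.76; limma adjusted p = 0.000443), and no fold is given for WT. With a pseudocount of 0.1 its difference was -8.43 (SE 1.46), more negative than those of M433DRAFT_63521 (-5.87) and M433DRAFT_310551 (-5.05), so the order of the most negative genes depends on the pseudocount. Its groups did not overlap within either genotype.

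The 4 group means of each gene were then compared in shape. A group was taken to stand apart when its gap to the nearest other group, on the log2(FPKM + 1) scale, exceeded the range of the other 3. The sign of a difference allows only some shapes: a negative one can come from untreated deletion or treated WT standing high, or from treated deletion or untreated WT standing low. No test was made, and the same counts over all genes fitted with that sign are given beside each. A gene needed 1 FPKM in 3 libraries to be tested, so a low gene could pass through a single high group. That group then also sets the shape and the sign. How many of the genes counted below passed in this way was not counted.

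Among the 417 more negative genes, the untreated deletion was the group that stood apart in most. It was highest and apart in 252 (60.4%), against 36.0% of the 4633 genes with a negative fitted difference. Their median levels were 6.29 FPKM in ∆ArAceA with copper, 17.6 FPKM in ∆ArAceA without copper, and 5.65 and 5.27 FPKM in WT with and without copper. On the log2 scale ∆ArAceA lay above WT by a median of 0.15 with copper and 1.47 without, where the median over all genes tested was 0.12 in both conditions. The shape and the 2-fold limit select genes whose genotypes lie closer together in copper than without it. The distances of 0.15 and 1.47 thus describe the 252 genes and are not a separate result. The deletion libraries without copper also had the highest median FPKM over all genes, 16.70 to 16.78, against 15.66 to 16.32 in ∆ArAceA with copper, 14.08 to 14.31 in WT with copper and 14.13 to 14.78 in WT without. After median-of-ratios scaling of the libraries, which brought that median over all genes to 0.0023 with copper and -0.013 without, 232 more negative genes of at least 2-fold had this shape, and 226 after upper-quartile scaling.

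The other shapes of negative difference were rarer. Treated deletion was lowest and apart in 34 genes (8.15%, against 8.61% of all genes fitted negative), with median levels of 15.7 FPKM there, 49.5 FPKM in ∆ArAceA without copper, and 39.8 and 45.4 FPKM in WT with and without copper. Untreated WT was lowest and apart in 22 genes (5.28%, against 6.69%), with medians of 11.1 and 14.4 FPKM in ∆ArAceA with and without copper, and 12.7 and 6.64 FPKM in WT. Treated WT was highest and apart in 12 genes (2.88%, against 3.43% of all genes fitted negative). Their medians were 10.0 and 10.0 FPKM in ∆ArAceA with and without copper, and 25.8 and 10.7 FPKM in WT, and M433DRAFT_310551 is one of them. The remaining 97 genes (23.3%, against 45.3%) had no single group apart.

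Among the 92 more positive genes, the treated deletion stood apart most often. It was highest and apart in 48 (52.2%), against 23.2% of the 4108 genes with a positive fitted difference. The 48 genes had medians of 20.7 FPKM in ∆ArAceA with copper, 4.23 FPKM in ∆ArAceA without copper, and 5.91 and 4.11 FPKM in WT with and without copper, and M433DRAFT_357512 is one of them. Untreated deletion was lowest and apart in 21 genes (22.8%, against 15.8%), with medians of 12.9 and 4.24 FPKM in ∆ArAceA with and without copper, and 12.9 and 11.4 FPKM in WT. Untreated WT was highest and apart in 2 genes (2.17%, against 6.86%), treated WT lowest and apart in 0 (against 8.59%), and 21 (22.8%, against 45.5%) had no single group apart.

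**Figure D4:**
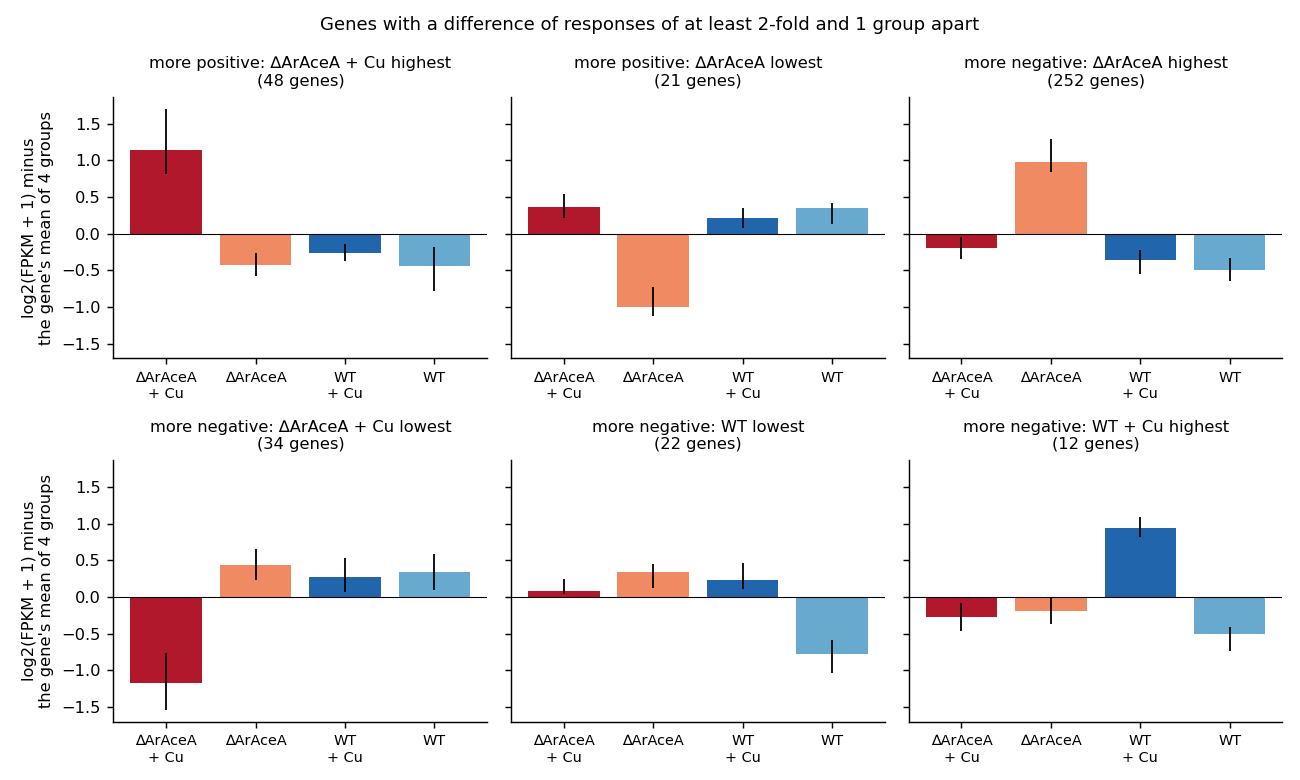
Median over genes (bars) and quartiles (lines) of each group's mean log2(FPKM + 1) minus the gene's mean of the 4 groups (y axis), for genes with a called difference of at least 2-fold in which 1 group stood apart; shapes of fewer than 10 genes are left out. The largest panel holds 252 genes in which ∆ArAceA without copper is high and the other 3 groups lie close together.

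The amount of transcript that these genes hold followed the same pattern. The 417 more negative genes held 1.68, 1.63 and 1.59% of the FPKM in the libraries of ∆ArAceA with copper and 4.15, 4.39 and 4.14% without copper. In WT they held 2.34, 2.46 and 2.14% with copper and 2.31, 1.62 and 2.17% without, so the WT groups overlapped and the deletion groups did not. The 92 more positive genes held 0.511 ± 0.017% in ∆ArAceA with copper and 0.152 ± 0.00077% without, against 0.243 ± 0.0031% and 0.226 ± 0.0062% in WT with and without copper (SD, n = 3 each). The genes were chosen by these same levels, and the shares are descriptions.

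A difference on the log2 scale compares folds, and the same groups can be compared in FPKM. For 1768 of the 1770 more positive genes and 2226 of the 2236 more negative genes, the copper change in FPKM in ∆ArAceA minus that in WT had the same sign as the difference of log2 values. The sign was also the same for 4525 of the 4735 genes not called, so this agreement is not particular to the called genes. The median of the difference in FPKM was 10.1 for the more positive genes and -8.79 for the more negative ones. Against an additive response on the log2 scale, the 417 genes had a median of 7.46 FPKM in ∆ArAceA with copper where 22.3 FPKM would have been reached, and the 92 genes had 20.9 FPKM in place of 6.81 FPKM. On the log2 scale this gap is the difference of responses itself, by which the genes were chosen. It puts that difference in FPKM and is not a separate result.

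The direction of the called differences differed with the level of the gene. Genes were divided into 5 equal bins by their mean log2(FPKM + 1) over the 12 libraries. In the lowest bin, up to a geometric mean of 4.47 FPKM, 97 of 1748 genes were more positive in ∆ArAceA and 464 more negative. In bin 2 the counts were 260 and 481, and in bin 3 they were 491 and 406. In bins 4 and 5 the directions were close to even, at 460 and 431 genes and at 462 and 454. A gene needed 1 FPKM in 3 libraries to be tested, so a low gene could pass through 1 high group, which can also make its call. How many genes did so was not counted. Low genes had larger errors, with a median SE of 0.20 in the lowest bin against 0.07 in the highest, and the pseudocount of 1 FPKM shrinks their differences. Even so, 129 and 124 of the 417 genes more negative by 2-fold or more were in bins 1 and 2, against 50 in bin 5.

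**Figure D5:**
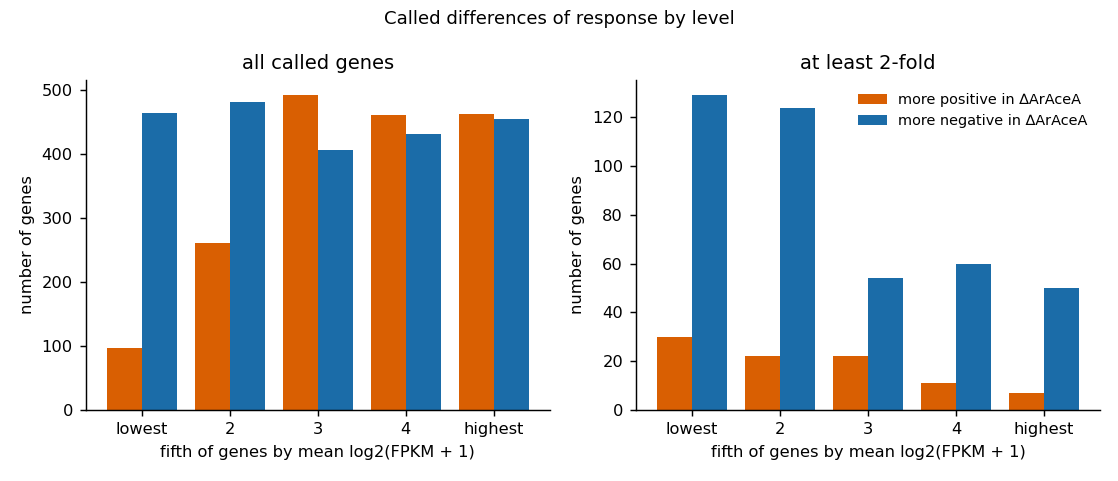
Number of genes (y axis) with a called difference of responses in each of 5 equal bins of the 8741 genes by mean log2(FPKM + 1) (x axis, lowest to highest), for all called genes (left) and those of at least 2-fold (right). In the lowest bin 97 genes were more positive and 464 more negative in ∆ArAceA, and in the highest bin 462 and 454.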

How the data were processed

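The data were RNA-seq libraries of mycelium, grouped by their titles. The authors deposited FPKM values, normalized for transcript length and library size, per the file headers; the series table and the single-library files held the same values (0 of 120516 differed). The submitters' processing notes name HISAT2 2.1.0, RSEM 1.2.8 and DESeq2 without roles. Genome build, annotation and strandedness are not given in the sources used here, so reads shared by similar or overlapping genes could not be judged. The labels give 2 different growth temperatures. No column was left unmapped (0), the deposited log2 and Q columns were not used, and between any 2 libraries at most 0.332% of values of 10 FPKM or more were equal.

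Genes reaching 1 FPKM in 3 or more libraries were tested (8741; 1302 dropped). A single model of the 4 groups was fitted to log2(FPKM + 1) with limma (version 3.58.1, R 4.3.3; trended prior variance, robust) and tested on simulated data. Fitted changes understate those of low genes, and folds are ratios of mean FPKM. Named genes were the 2 most positive and 2 most negative called differences whose highest group mean reached 5 FPKM, then the next 2 each way among genes that copper moved in opposite directions. Comparisons, shapes and lists were chosen with earlier results of these data known. Alternatives were a pseudocount of 0.1, other filters, 2 library scalings, a replicate block, no trend or robust moderation, and leaving out each library.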

Additional observations from a re-analysis of the deposited data

Results flagged for a closer look

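The 8 named genes are listed because the difference between the copper responses of ∆ArAceA and WT passed its own test in each. A called difference was a condition of being named, so this pass is not a separate result. The response was more positive in ∆ArAceA by 6.55 for M433DRAFT_131828, 2.79 for M433DRAFT_357512, 1.81 for M433DRAFT_435716 and 1.59 for M433DRAFT_151751 on the log2(FPKM + 1) scale. It was more negative for M433DRAFT_63521 (-5.57), M433DRAFT_310551 (-4.96), M433DRAFT_27941 (-4.18) and M433DRAFT_156593 (-3.62). They were picked out of 4006 genes that passed, and not all for size alone. M433DRAFT_131828, M433DRAFT_357512, M433DRAFT_63521 and M433DRAFT_310551 were the largest each way under the minimum level. The others were the next by size among genes that copper moved in opposite directions. Among all genes tested, M433DRAFT_435716 ranked 105 and M433DRAFT_151751 ranked 153 by size of the difference.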

How the results depend on the processing

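In every alternative run, the counts of called genes, of genes differing by at least 2-fold and of genes past the 2-fold minimum test stayed within 1.5 times those reported, and no called gene turned its sign with a call. The exceptions were the genes that copper moved in opposite directions: 203 with ∆ArAceA up and WT down became 135 to 220 when single libraries were left out, and 251 with ∆ArAceA down and WT up became 158 to 226. The lowest values came without replicate 1 of WT with copper (both counts) and without its replicate 2 (first count). Leaving out replicate 2 of WT without copper gave a first count of 139. The 8 named genes kept direction and call throughout, but with a pseudocount of 0.1 the differences of the 2 with a group listed at 0 moved by over 1.5 times, M433DRAFT_131828 to 11.43 and M433DRAFT_27941 to -8.43. The balance of copper calls within a genotype changed with scaling. More negative differences of at least 2-fold numbered 605 with a pseudocount of 0.1, 392 after median-of-ratios scaling and 388 after upper-quartile scaling, and more positive ones 110, 93 and 97. The scalings moved the share of more positive calls from 44.2% to 48.0% and 48.7%. Leaving out single libraries, 83 to 91 of the 92 and 403 to 416 of the 417 genes were still called. With the replicate number as a block, 3791 genes were called. Nothing in the labels says that the numbers pair the samples. Residuals of same-numbered libraries correlated at -0.175 to 0.066 over 18 pairs, with 0 above 0.1. Differently numbered libraries were not compared with these, so whether the samples are paired was not settled. The counts of shapes and of copper calls within a genotype were added after seeing the data. Read depth is unknown, so counting error is not separated from the spread between cultures.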

Other observations

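Some of the differences of at least 2-fold were in genes listed at 0 in all 3 libraries of a group. Among the 417 more negative genes, 6 were at 0 in ∆ArAceA with copper, 0 in ∆ArAceA without copper, 5 in WT with copper and 5 in WT without copper. Among the 92 more positive genes, 1, 5, 2 and 4 were at 0 in these groups. Over all 8741 genes tested, the counts in the same order were 15, 11, 20 and 19. A value of 0 says only that the gene was listed at 0.

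A fitted difference of at least 2-fold was not called in 36 genes. The largest of these, singled out after its values were seen, was M433DRAFT_6878, with 5.09, 208.9 and 12 FPKM in ∆ArAceA with copper and 936.6, 1015 and 839.5 FPKM in ∆ArAceA without copper. In WT it had 1007, 1434 and 976.1 FPKM with copper and 2499, 1480 and 2728 FPKM without copper. Its difference of responses was -4.24 (SE 1.57; limma adjusted p = 0.0559), and without replicate 2 of ∆ArAceA with copper, the library at 208.9 FPKM, it was -5.76 (SE 0.50; limma adjusted p = 7.03e-05). Without trend and robust moderation the adjusted p in limma was 0.0279, and over all alternatives it ran from 7.03e-05 to 0.117. On the linear scale the sign was the other way, since the fall in ∆ArAceA was smaller than that in WT by 241 FPKM. Among called genes, the sign also differed between the scales in 2 more positive and 10 more negative ones.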
